A study of Mus musculus with 6 samples.

Results

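The subunits of the 5 complexes of oxidative phosphorylation were examined in whole livers of ethanol-fed mice with and without Cd44 in the cells that express lysozyme M. The members were the protein-coding genes whose GENCODE M21 symbol starts with mt-, Nduf followed by a, b, c, s or v and a digit, Uqcr, Cox and a digit from 4 to 8, or Atp5, together with Sdha, Sdhb, Sdhc and Sdhd. This rule found 98 of the 54532 gene rows, of which 13 are encoded by mitochondrial DNA and 85 by nuclear DNA. It uses names, not measured values, so a few members sit beside their named complex: Ndufa4 and Ndufa4l2 carry a complex I name although Ndufa4 works in cytochrome c oxidase, Cox7a2l is a supercomplex assembly protein, and Atp5s is coupling factor B.

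The knockout mice were LysMcre/+ Cd44flox/flox and the controls were littermates of genotype LysM+/+ Cd44flox/flox, both C57BL/6J/Rj, so the floxed Cd44 alleles were common to both groups and Cre was not. Cre stands at the lysozyme M locus (Lyz2), which is active in macrophages, monocytes and neutrophils, and floxed Cd44 in cell types where that locus is silent is not cut. Ethanol made up 6% (by volume) of a Lieber-DeCarli liquid diet that every mouse drank over 10 days; a gavage of 5 g ethanol per kg followed on day 11, and the livers were taken 9 hours after it. No mice without ethanol and no mice with Cre alone were analysed here, and the mice's ages are not given in the sources used here. Each group held 3 livers, 1 per mouse.

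Oxidative phosphorylation moves electrons from NADH (complex I) and succinate (complex II) through ubiquinone to complex III, cytochrome c and complex IV, where oxygen is reduced, and the proton gradient built on the way drives ATP synthase (complex V). The complexes other than complex II mix subunits made from mitochondrial DNA, which is transcribed as long precursors that are cut into single messengers, with subunits made in the cytosol and imported. In hepatocytes this pathway supplies ATP for gluconeogenesis and urea synthesis, and it reoxidises the NADH that alcohol and acetaldehyde dehydrogenases produce from ethanol.

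Library totals ran from 18428224 to 24042917 counts. Cd44 measured 32.6, 34.8 and 26.4 CPM in control livers and 2.11, 1.92 and 3.01 CPM in knockout livers, where CPM is the count relative to library size after scaling with TMM, a trimmed mean over genes. It fell by 3.73 on the log2 scale (SE 0.20, edgeR quasi-likelihood test, Benjamini-Hochberg adjusted p = 9.1e-05), so the labels and the targeted gene go together. Lyz2, where Cre is inserted, fell by 2.16 (SE 0.22, adjusted p = 0.000756). The tissue carried its hepatocyte markers in every liver: the 12 genes summed to 87893 to 104587 CPM in the controls and 114859 to 156096 CPM in the knockouts, none was at 0, and 5 of 12 were higher. Of the 12 shared myeloid markers 10 were lower, with a summed level of 674 to 730.1 CPM against 176 to 347 CPM. Lyz2 is 1 of these 12, at 195, 218 and 235 CPM in the controls and 41.3, 36.9 and 66.5 CPM in the knockouts. Because Cre is inserted there in the knockouts alone, an effect of the insertion on its level cannot be told apart from a change in myeloid cells. Of 8 stellate cell and fibroblast markers 4 were lower (608 to 681 against 455 to 475 CPM), and all 5 erythroid markers were higher (43.4 to 86.2 against 131 to 161 CPM). Of 8 endothelial and 5 tested cholangiocyte markers 0 passed (299 to 333 against 240.1 to 331 CPM, and 57.1 to 60.4 against 50.2 to 53.0 CPM), with 2 and 1 lower at an unadjusted p under 0.05 and 1 endothelial marker lower with DESeq2. Of 4 tested lymphocyte markers 1 was lower (7.54 to 8.57 against 2.89 to 6.06 CPM). Of 3 tested adipocyte markers 1 was higher and 2 were lower, with a summed level of 162 to 214 against 419 to 563 CPM whose largest part lay in Cidec in the controls and in Car3, which liver also expresses, in the knockouts, and Adipoq and Lep were at 0. Over all tested genes 11.9% rose and 13.1% fell, and 19.7% were lower at an unadjusted p under 0.05. With library totals in place of TMM, 6.13% rose and 25.1% fell. Then 4 hepatocyte and 4 erythroid markers were higher. Lower were 12 myeloid, 6 stellate cell and fibroblast, 4 endothelial, 1 cholangiocyte and 2 lymphocyte markers, and the adipocyte counts were the same. In whole tissue, fewer cells of a type and less RNA per cell cannot be told apart, and the part of these marker shifts in the results on respiratory chain genes was not tested.

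Of the 98 members 92 had enough counts to be tested, and the 6 others are given under complexes IV and V. Most members had a somewhat higher level in the knockout livers: 80 of 92 had a log2 fold change above 0, where 49.2% of all 14758 tested genes did. The median log2 fold change was 0.24 over the members, 0.22 over the nuclear encoded ones, 0.34 over the mitochondrially encoded ones and -0.01 over all tested genes. In 49 of the 92 all 3 knockout livers lay above all 3 controls and in 2 all lay below, where 21.4% and 22.5% of all tested genes did so (43.8% in either direction). These displacements were small, and 11 members rose and 1 fell at an adjusted p under 0.05. That is 12% of the tested members higher, beside a background of 11.9% higher and 13.1% lower (25% in either direction) over all tested genes, so the share of members that passed upward was near that of all genes. At an unadjusted p under 0.05, 32 members were higher and 1 was lower, against 18.3% and 19.7% of all genes (38% in either direction). The summed hepatocyte markers were also higher in every knockout (114859 to 156096 CPM) than in any control (87893 to 104587 CPM).

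The direction of the group rests on the scaling. Under library totals, without TMM, the median log2 fold change was -0.03 over the nuclear and 0.09 over the mitochondrially encoded members, 0 members were higher (6.13% of all genes) and 3 were lower (25.1%), and the median over all genes moved to -0.26. With DESeq2 19 members were higher (13.4% of all genes), with limma-voom 15 (12.2%), without a filter 6 (7.38%), and with offsets for length and GC content 13 (14.3%). Relative log expression size factors gave 12 (12.1%), and keeping genes that reached 50 counts in 3 livers gave 10 (13.2%). With edgeR and TMM, 24 members were higher at an adjusted p under 0.1 (16.1% of all genes) and 0 under 0.01 (4.91%). Without control 1, 2 or 3, 5, 1 and 4 members were higher (8.42%, 7.21% and 9.05% of all genes). Without knockout 1, 2 or 3, 2, 3 and 5 were higher (7.32%, 9.2% and 10.4%). In the fits other than library totals 1 member was lower, or 2 with the offsets.

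**Figure D1:**
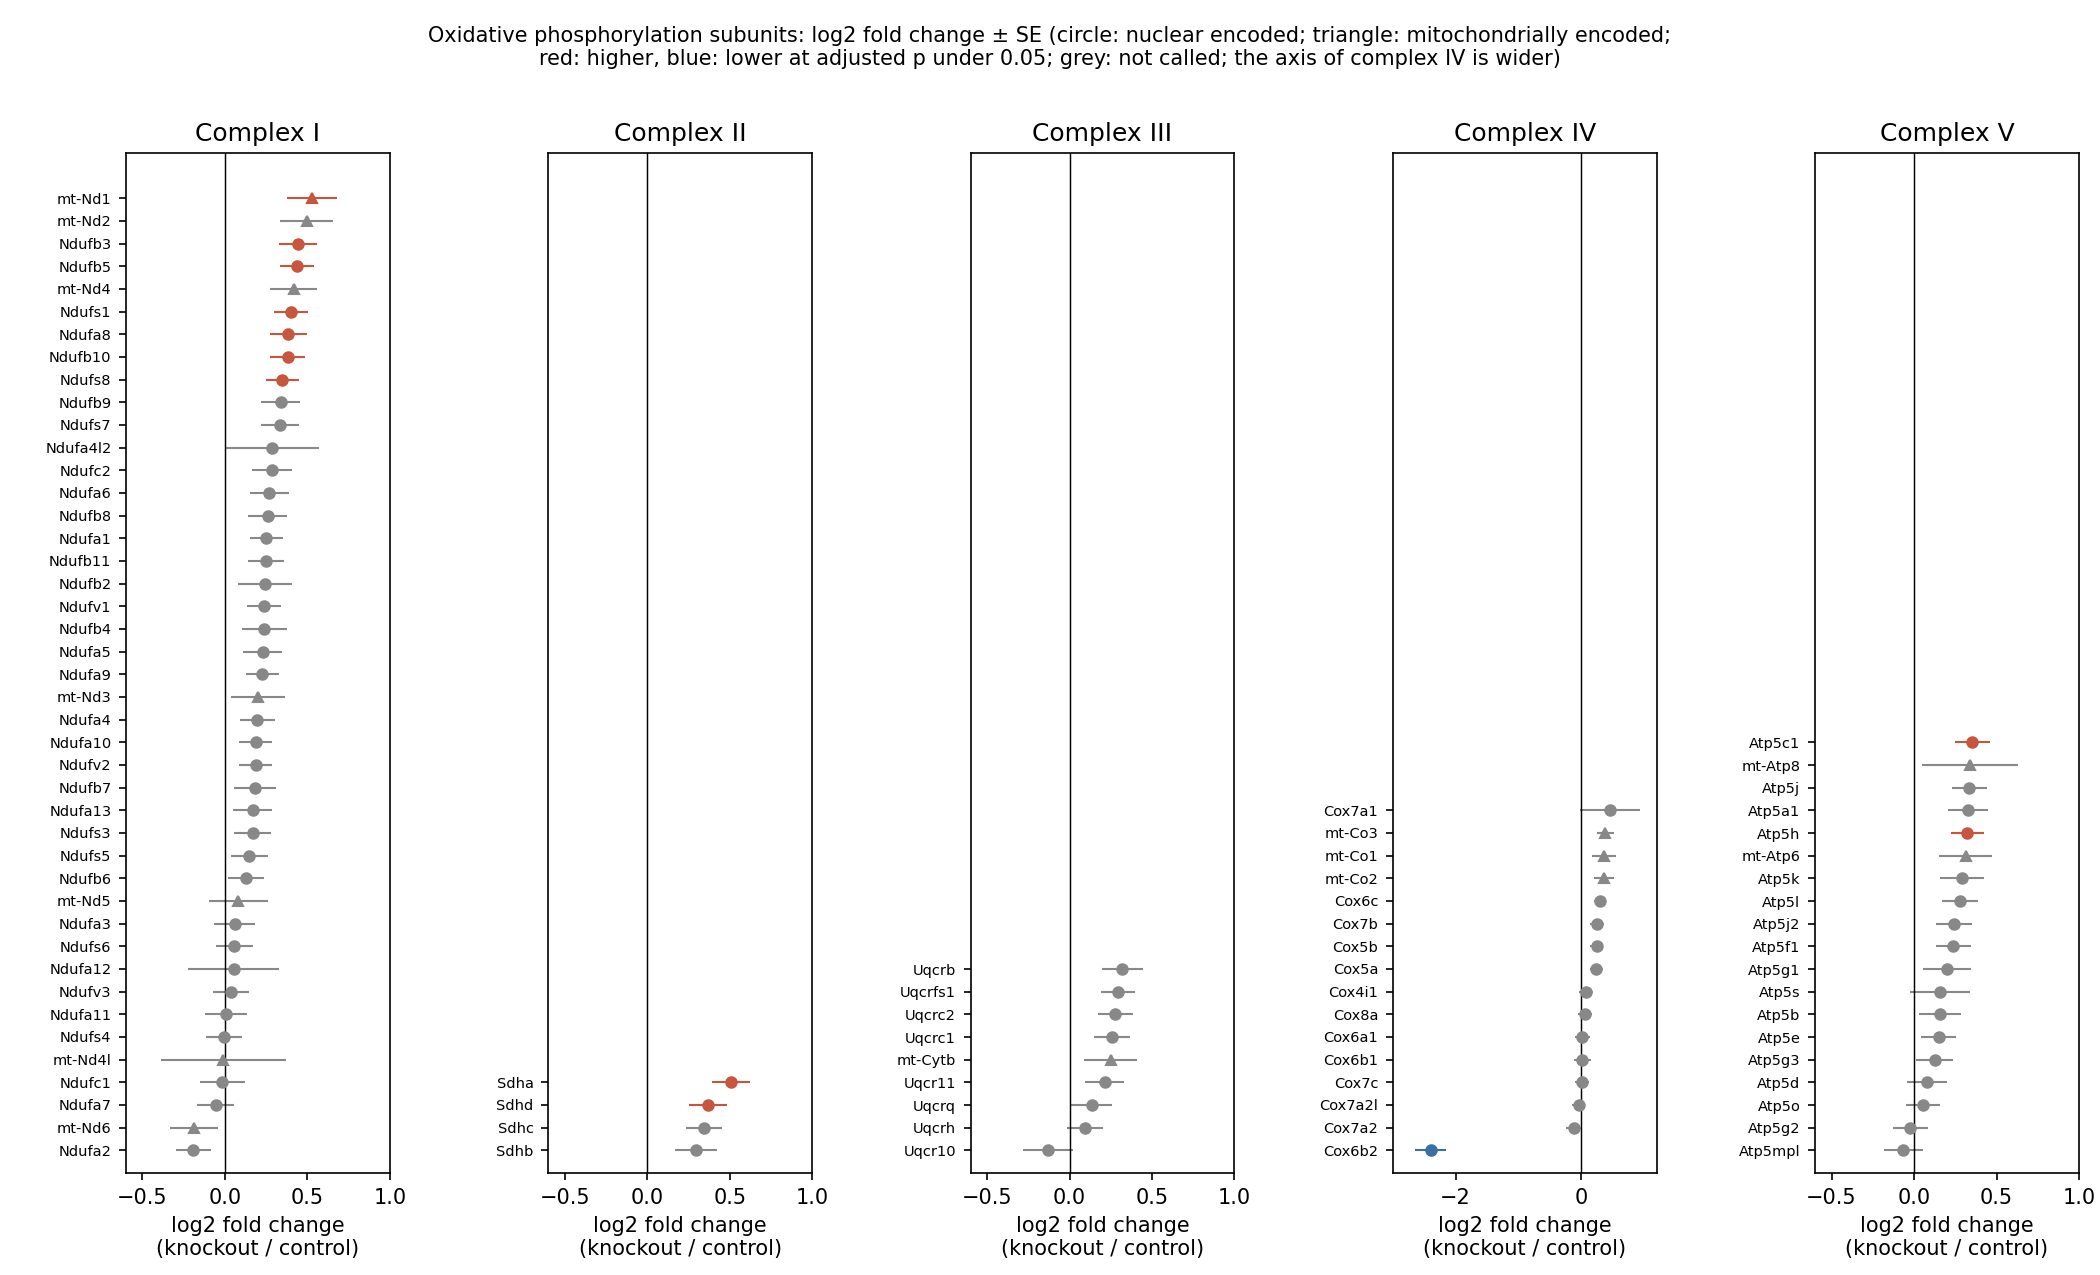
Log2 fold change of the tested members, knockout over control, with its standard error, in 1 panel per complex. Circles are nuclear encoded and triangles mitochondrially encoded members, red and blue mark those higher or lower at an adjusted p under 0.05, and the axis of complex IV is wider. Most points sit between 0 and 0.5 and Cox6b2 stands alone at -2.40; under library totals the nuclear median is -0.03.

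Summed over all nuclear encoded members, the level was 10101, 10312 and 10922 CPM in the controls and 11598, 12165 and 12244 CPM in the knockouts, a ratio of the means of 1.15. The 3 knockouts lay above the 3 controls. Summed over the 13 mitochondrially encoded members, it was 37227, 38323 and 36234 CPM in the controls and 48377, 48576 and 45046 CPM in the knockouts, a ratio of 1.27, again without overlap. As a plain share of each library's counts, the nuclear members took 1.10%, 1.16% and 1.16% in the controls and 1.09%, 1.05% and 1.15% in the knockouts. The mitochondrially encoded members took 4.05%, 4.30% and 3.85% against 4.54%, 4.20% and 4.25%. In both sums the groups overlapped on this scale, and the log2 ratio was -0.05 for the nuclear and 0.09 for the mitochondrial members. The sums carry no test.

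Taken by complex, the nuclear encoded sums differed in how far they moved. That of complex II was 786, 807 and 869.9 CPM in the controls and 1101, 1100.1 and 1089 CPM in the knockouts, a ratio of 1.34. It also took a larger share of plain counts in every knockout, 0.103%, 0.0951% and 0.103% against 0.0855%, 0.0905% and 0.0925%. The nuclear encoded members of complex IV summed to 1727, 1823 and 1890 CPM against 1842, 1927 and 1992 CPM with overlap, a ratio of 1.06. As a share of plain counts they were lower in every knockout, at 0.188%, 0.205% and 0.201% against 0.173%, 0.167% and 0.188%, with the highest knockout just under the lowest control. The ratios of the nuclear sums of complexes I, III and V were 1.14, 1.15 and 1.16. The difference between complexes was not tested.

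**Figure D2:**
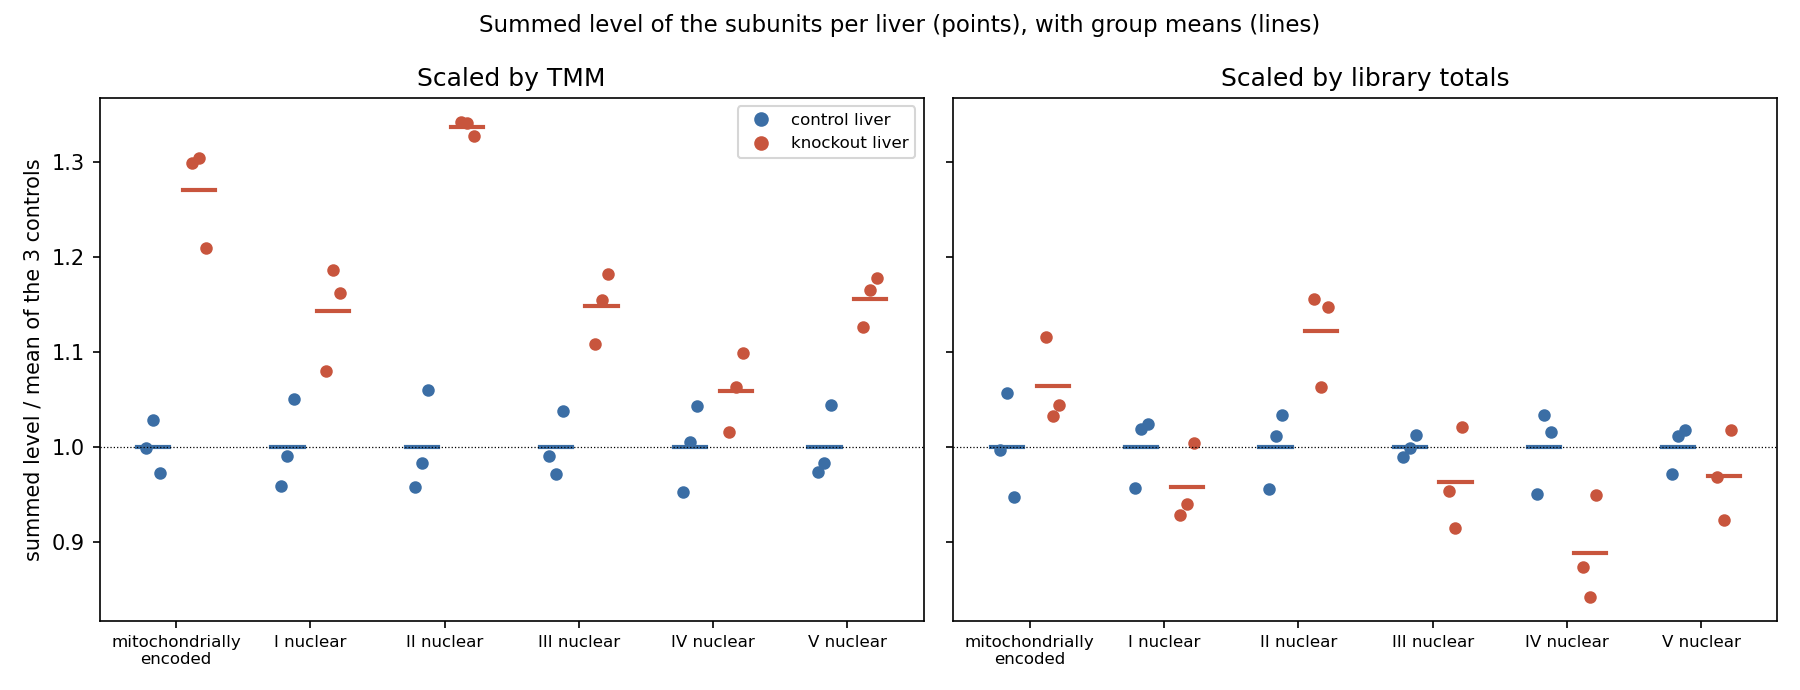
Summed level of the mitochondrially encoded members and of the nuclear encoded members of each complex, divided by the mean of the 3 controls, with TMM scaling (left) and with library totals (right); points are livers and lines are group means. With TMM the mitochondrial, complex I, II, III and V sums of the knockouts lie above all controls, and with library totals the complex II sum alone stays above.

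Complex I, the NADH dehydrogenase, held 44 members, all tested, of which 7 rose (15.9%) and 0 fell, beside 11.9% and 13.1% of all tested genes, with a median log2 fold change of 0.21. Without any 1 liver 1 to 3 were called. Its core is the part inherited from the bacterial enzyme and carries the flavin, the iron-sulfur clusters and the proton channels; the accessory subunits surround it. Of the 7 nuclear encoded core subunits 2 rose (28.6%), and of the 30 nuclear encoded accessory members 4 rose (13.3%, against 11.9% of all tested genes).

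Ndufs1, the largest subunit of the NADH-oxidising arm and a carrier of iron-sulfur clusters, measured 95.4, 89.6 and 99.2 CPM in control livers and 126, 127 and 122 CPM in knockout livers. All knockouts lay above all controls, and the gene rose by 0.40 on the log2 scale (SE 0.10, adjusted p = 0.0231). Ndufs8, a core subunit with the iron-sulfur clusters on the way to ubiquinone, measured 41.6, 42.5 and 45.8 CPM against 53.2, 54.8 and 57.3 CPM. It rose by 0.35 (SE 0.10, adjusted p = 0.0384). The other nuclear encoded core subunits did not pass. The highest log2 fold change among them was 0.33 (Ndufs7). Ndufs1 did not pass without control 1, control 2 or knockout 1 (adjusted p = 0.0512, 0.0819 and 0.0781), and Ndufs8 did not pass without any 1 of the 6 livers (adjusted p = 0.0507 to 0.104). The exons of Ndufs1 overlap those of Eef1b2 and Ino80dos on the other strand, so its counts are uncertain where the strand setting is not known.

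Among the accessory subunits, Ndufb5, a protein of the membrane arm, measured 44.5, 49.5 and 49.1 CPM in control livers and 61.3, 66.1 and 66.2 CPM in knockout livers. The groups were well apart, and it rose by 0.44 (SE 0.10, adjusted p = 0.0183); its exons overlap those of Mrpl47 on the other strand. Ndufb3, a small membrane-arm subunit, measured 33.1, 32.4 and 30.0 CPM against 39.3, 48.2 and 42.2 CPM and rose by 0.44 (SE 0.12, adjusted p = 0.0261). Its 3 knockouts spread more widely than its controls. Ndufb10, which lies on the intermembrane side of the membrane arm, measured 72.4, 73.0 and 77.97 CPM against 90.5, 99.3 and 101 CPM and rose by 0.38 (SE 0.10, adjusted p = 0.0301). Ndufa8, another intermembrane subunit with cysteine pairs, measured 76.6, 83.6 and 84.7 CPM against 95.6, 111 and 113 CPM and rose by 0.38 (SE 0.11, adjusted p = 0.0393). In each of these genes the lowest knockout was above the highest control.

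The 26 accessory members that did not pass had log2 fold changes from -0.19 (Ndufa2) to 0.34 (Ndufb9). Without 1 liver, Ndufb5 passed in all 6 fits. Ndufb3 did not pass without control 2, control 3 or knockout 2 (adjusted p = 0.0637, 0.0714 and 0.0645), and Ndufb10 passed only without control 3 (adjusted p = 0.0573 to 0.0892 in the 5 other fits). Ndufa8 passed in 0 of the 6 fits (adjusted p = 0.0511 to 0.0947).

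The lowest log2 fold change of complex I was that of Ndufa2, a small peripheral-arm subunit, at 70.9, 74.3 and 79.3 CPM in the controls and 62.2, 63.9 and 70.6 CPM in the knockouts. The knockouts lay below the controls by a narrow gap, and the difference did not pass (log2 -0.19, SE 0.11, adjusted p = 0.230); under library totals it did (log2 -0.44, adjusted p = 0.0242). Ndufa2 shares exons with Tmco6 on the other strand. Ndufa4, the subunit that works in complex IV, measured 175, 183 and 191 CPM against 199, 216 and 215 CPM without overlap, and did not pass (log2 0.20, SE 0.11, adjusted p = 0.216). Its hypoxia-linked paralog Ndufa4l2 was low, at 1.47, 1.40 and 1.70 against 1.39, 1.92 and 2.27 CPM, and the groups overlapped (log2 0.29, SE 0.29, adjusted p = 0.502).

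The 7 mitochondrially encoded subunits of complex I form its proton-pumping membrane core. mt-Nd1, the subunit at the ubiquinone site, lies at chrM:2751-3707 (GRCm38, plus strand) and measured 4276, 4013 and 4253 CPM in control livers and 6039.6, 6153 and 5865 CPM in knockout livers. The groups were far apart for this family, and it rose by 0.53 (SE 0.15, adjusted p = 0.0356), the 1 mitochondrially encoded member that passed. Without any 1 liver it did not pass (adjusted p = 0.0511 to 0.108). mt-Nd2, a proton-channel subunit, measured 4151, 3479 and 3612 CPM against 5626, 4898 and 5321 CPM (log2 0.50, SE 0.16, adjusted p = 0.0545). mt-Nd4, another channel subunit, measured 2728, 2838 and 2671 CPM against 3642, 3595 and 3757 CPM (log2 0.42, SE 0.14, adjusted p = 0.0626). In both the knockouts lay above every control and the adjusted p was just over the threshold.

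The remaining members of that group did not separate. mt-Nd5, the most distal channel, measured 3227, 3149 and 3022 CPM in control livers and 3239, 3993 and 2715 CPM in knockout livers (log2 0.08, SE 0.18, adjusted p = 0.776). Its knockouts spread on both sides of the controls. mt-Nd6 is the only protein-coding gene on the minus strand of the mitochondrial chromosome, at chrM:13552-14070, where its end overlaps mt-Nd5 on the plus strand. Its counts are uncertain because the strand setting is not known. mt-Nd6 measured 1152, 1229 and 1125 CPM in control livers and 1015, 1160.3 and 903 CPM in knockout livers (log2 -0.19, SE 0.14, adjusted p = 0.376). The groups overlapped, and mt-Nd6 was lower in the knockout mean where mt-Nd1, mt-Nd2 and mt-Nd4 were higher; it passed as lower under library totals (log2 -0.45, adjusted p = 0.0347) and with offsets for length and GC content (log2 -0.51, adjusted p = 0.0342). mt-Nd3 measured 26.3, 18.8 and 21.5 CPM against 21.05, 27.6 and 27.8 CPM (log2 0.20, SE 0.16, adjusted p = 0.410). mt-Nd4l measured 8.46, 20.2 and 11.0 CPM against 15.4, 16.7 and 7.20 CPM (log2 -0.01, SE 0.38, adjusted p = 0.989). The livers of both groups were mixed in these 2 genes, whose levels were far under those of their neighbours.

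Copies of mitochondrial DNA in the nuclear genome bear on those levels. On chromosome 1, between 24611535 and 24616197 (GRCm38, minus strand), lie 7 annotated pseudogenes of mitochondrial subunits. The share of a gene's 50-base sequences that also occur in other annotated genes was 98.0% for mt-Nd3, 98.8% for mt-Nd4l, 99.5% for mt-Atp6, 99.9% for mt-Co3 and 100% for mt-Co2. It was 62.2% for mt-Nd4 and 51.1% for mt-Co1, and at most 8.2% for the others. The first 80 bases of mt-Nd3 and of its copy Gm28438 are shown because they differ at 1 base, T3C, counted from the 5′ end of mt-Nd3 and set in capitals, which is also the only mismatch over the 345 aligned bases (99.71% identity):
mt-Nd3: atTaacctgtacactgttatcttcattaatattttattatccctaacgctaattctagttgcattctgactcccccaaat
Gm28438: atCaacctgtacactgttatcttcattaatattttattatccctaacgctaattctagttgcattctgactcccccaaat
The aligned parts of mt-Nd4l, mt-Nd4, mt-Co2, mt-Co3 and mt-Atp6 match their copies at 100% of bases.

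The 5 genes with at least 98.0% of their sequence in a copy had a control mean of 44.5 to 155 CPM per kb of exon. The 7 others, mt-Atp8 aside, had 1717 (mt-Nd5) to 10000.0 (mt-Co1) CPM per kb. Summed over the 6 livers, the counts of these 5 genes were 1.18 (mt-Co2) to 5.33 (mt-Nd3) times those of their copies, against 147 times for mt-Nd4 and 635 times for mt-Co1. mt-Atp8, whose place on chromosome 1 falls between 2 annotated copies, had 0% of its sequence in annotated genes and still only 4.86 CPM per kb. How reads that match several places were counted is not given in the sources used here, so the levels of these 6 genes are uncertain, and they are not ranked with the others. The levels of mt-Nd4 and mt-Co1, with 62.2% and 51.1% of their 50-base sequences elsewhere, are uncertain in part for the same reason. Counts of the copies were added to mt-Nd3, mt-Nd4, mt-Nd4l, mt-Co2, mt-Co3 and mt-Atp6, and not to mt-Co1. This left the number of members called at 11 higher and 1 lower.

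**Figure D3:**
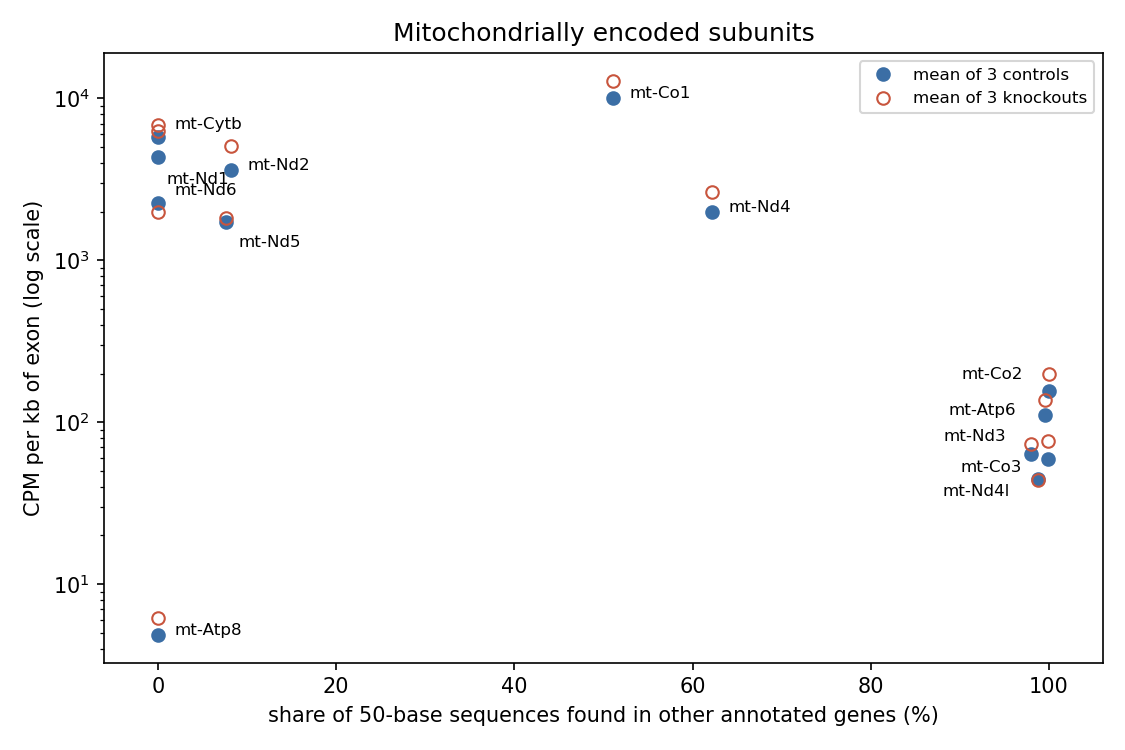
Level of each mitochondrially encoded member in CPM per kb of exon (log scale) against the share of its 50-base sequences found in other annotated genes; filled points are means of the 3 controls and open points means of the 3 knockouts. The 5 members at 98.0% to 100% lie under 200 CPM per kb in both groups, while 7 others lie above 1700.

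Complex II, succinate dehydrogenase, joins the citric acid cycle to the respiratory chain and has no mitochondrially encoded subunit. All 4 members had knockouts above controls, as 21.4% of all tested genes did. Of the 4, 2 rose, where 11.9% of all tested genes rose, and the median log2 fold change was 0.36. Without any 1 liver 0 or 1 was called. Sdha, the flavoprotein that oxidises succinate, measured 372, 352 and 392 CPM in control livers and 553, 518 and 519 CPM in knockout livers. It rose by 0.51 (SE 0.12, adjusted p = 0.0153), the largest change among nuclear encoded members that rose. Sdhd, a membrane anchor, measured 146, 174 and 173 CPM against 208, 219 and 211 CPM and rose by 0.37 (SE 0.12, adjusted p = 0.0478). The controls of Sdhd spread more than its knockouts. Sdhc, the other anchor, measured 148, 137 and 153 CPM against 175, 183 and 198 CPM (log2 0.34, SE 0.11, adjusted p = 0.0514). Sdhb, the iron-sulfur subunit, measured 119, 142 and 151 CPM against 165, 180.1 and 161 CPM (log2 0.30, SE 0.13, adjusted p = 0.12). Sdha did not pass without control 2 or knockout 1 (adjusted p = 0.0562 and 0.0649), and Sdhd did not pass without any 1 liver (adjusted p = 0.0731 to 0.112).

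The promoter of Sdha is shown because it holds the motif of NRF1, a factor known for binding promoters of respiratory chain genes, 3 times. The 250 bases before its start, at chr13:74350241-74350490 (minus strand, RefSeq, GRCm38.p6), read 5′ to 3′ as follows, with matches to the NRF1 letters (GCGCA, any base N, then GCGC) and to CCAAT, on either strand, in capitals:
Sdha: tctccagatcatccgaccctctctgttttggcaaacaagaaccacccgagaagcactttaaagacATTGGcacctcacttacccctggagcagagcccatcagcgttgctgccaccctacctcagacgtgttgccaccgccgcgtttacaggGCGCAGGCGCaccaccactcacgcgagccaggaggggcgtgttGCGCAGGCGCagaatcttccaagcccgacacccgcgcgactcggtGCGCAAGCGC
Of the 84 nuclear encoded symbols 66 had a promoter in the RefSeq table, with 71 windows in all. The NRF1 letters were found in 14 of these windows (19.7%) and in 3.7% of all 32851 windows, each the 250 bases before a start. The ETS letters CCGGAAG, the core of GABP sites, were found in 12 windows (16.9%, against 6.9% of all), TCAAGGTCA of the estrogen-related receptors in 1 window (1.4%, against 0.4%) and CCAAT, the NF-Y box, in 30 windows (42.3%, against 33.8%). A short motif such as CCAAT or CCGGAAG occurs often by letters alone, and a match is not a measured binding site. Of the 10 nuclear encoded members that rose, Ndufs1 was not matched to the table. Sdha, Sdhd, Ndufa8, Atp5h and Atp5c1 had a window with the NRF1 letters, Atp5c1 in 1 of its 2 windows, and Ndufb3, Ndufb5, Ndufb10 and Ndufs8 had none.

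Complex III, the cytochrome bc1 complex, had 9 members, all tested. None passed with edgeR, where 11.9% of all tested genes rose and 13.1% fell. At an unadjusted p under 0.05 4 were higher, where 18.3% of all tested genes were. DESeq2 called 1, where it called 27.7% of all genes in either direction. The median log2 fold change was 0.25. mt-Cytb, the mitochondrially encoded cytochrome b, measured 6392, 6994 and 6334 CPM in control livers and 7475, 7875 and 8091 CPM in knockout livers without overlap (log2 0.25, SE 0.16, adjusted p = 0.293). The highest value was that of Uqcrb, a small subunit next to the quinone site, at 68.9, 85.1 and 85.5 CPM against 103, 92.6 and 104 CPM (log2 0.32, SE 0.12, adjusted p = 0.0932). The share of its 50-base sequences found in other genes was 25.4%, and its exons overlap Gm10767 on the other strand. Uqcr10 had the lowest, at 86.4, 110.4 and 122 CPM against 86.1, 102 and 103 CPM with overlapping groups (log2 -0.13, SE 0.15, adjusted p = 0.571). The 6 remaining members, among them the core proteins Uqcrc1 and Uqcrc2 and the Rieske iron-sulfur protein Uqcrfs1, had log2 fold changes from 0.09 (Uqcrh) to 0.29 (Uqcrfs1), and none passed.

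Complex IV, cytochrome c oxidase, had 21 members by name, 16 of them tested, with 0 higher and 1 lower with edgeR and a median log2 fold change of 0.15. Over all tested genes 11.9% rose and 13.1% fell with edgeR. At an unadjusted p under 0.05 5 were higher and 1 was lower, against 18.3% and 19.7% of all tested genes. DESeq2 called 3 members in either direction, where it called 27.7% of all genes. Its 3 mitochondrially encoded subunits form the core, with the hemes and copper centres in mt-Co1 and mt-Co2. mt-Co1, the catalytic subunit and the most abundant member per kb, measured 15032, 16355 and 14963 CPM in control livers and 21029.6, 20512 and 18104 CPM in knockout livers (log2 0.36, SE 0.19, adjusted p = 0.191). mt-Co3 measured 52.3, 43.3 and 43.2 CPM against 60.7, 67.0 and 53.0 CPM (log2 0.38, SE 0.13, adjusted p = 0.0688). In these 2 genes the groups did not overlap. mt-Co2, which takes electrons from cytochrome c, measured 100.3, 123 and 95.4 CPM against 127, 166 and 117 CPM, where knockout 3 lay under control 2 (log2 0.36, SE 0.16, adjusted p = 0.140).

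The nuclear encoded subunits of complex IV had a lower median, 0.06 on the log2 scale over 13 tested members. Several of them exist as isoforms, a common form and a form of heart and skeletal muscle, lung or testis. Cox6b2, the testis form of a subunit that holds the dimer together on the intermembrane side, lies at chr7:4751792-4753094 on the minus strand. It measured 4.29, 5.03 and 4.04 CPM in control livers and 0.959, 0.818 and 0.739 CPM in knockout livers, from 93 to 108 and from 15 to 20 counts. The groups were far apart, and Cox6b2 fell by 2.40 on the log2 scale (SE 0.25, adjusted p = 0.000774). It passed as lower in every alternative run, with a log2 fold change between -2.66 and -2.29. Cox6b1, the common form, measured 113, 125 and 154 CPM against 120.2, 141 and 137 CPM with overlapping groups (log2 0.02, SE 0.14, adjusted p = 0.944). Per kb of exon, Cox6b2 made up 2.36%, 2.50% and 1.65% of the pair in the controls and 0.507%, 0.369% and 0.345% in the knockouts. In the same livers the summed myeloid markers, with Lyz2 among them, lay at 674 to 730.1 CPM in the controls and 176 to 347 CPM in the knockouts. The part of myeloid cells in the fall of Cox6b2 was not tested.

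The 250 bases before the starts of both genes, at chr7:4753095-4753344 for Cox6b2 and chr7:30626115-30626364 for Cox6b1 (both minus strand, RefSeq, GRCm38.p6), are shown because these isoforms differed most. Matches to CCAAT and to CCGGAAG on either strand are in capitals:
Cox6b2: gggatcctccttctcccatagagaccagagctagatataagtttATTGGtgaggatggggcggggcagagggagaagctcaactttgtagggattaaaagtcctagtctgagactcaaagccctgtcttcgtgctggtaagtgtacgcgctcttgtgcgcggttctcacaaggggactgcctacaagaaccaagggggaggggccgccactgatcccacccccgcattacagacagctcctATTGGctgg
Cox6b1: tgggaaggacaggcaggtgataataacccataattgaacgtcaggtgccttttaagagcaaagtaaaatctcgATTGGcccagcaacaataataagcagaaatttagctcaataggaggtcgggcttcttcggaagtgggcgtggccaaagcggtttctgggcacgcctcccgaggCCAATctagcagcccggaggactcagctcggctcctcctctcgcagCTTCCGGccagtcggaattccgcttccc
Both windows hold 2 CCAAT matches, Cox6b1 holds 1 ETS match and Cox6b2 holds 0, and neither holds the NRF1 letters.

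The common forms of the other pairs had values near no difference. Cox4i1 measured 345, 332 and 351 CPM in control livers and 353, 348 and 379 CPM in knockout livers (log2 0.07, SE 0.11, adjusted p = 0.691). Cox6a1 measured 284, 303 and 321 CPM against 296, 294 and 329 CPM (log2 0.02, SE 0.12, adjusted p = 0.931). Cox8a measured 186, 212 and 214 CPM against 211, 209.5 and 217 CPM (log2 0.06, SE 0.11, adjusted p = 0.735). In each the groups overlapped. Cox7a2, the form of liver and most tissues, measured 87.3, 100.2 and 101 CPM against 79.96, 87.0 and 99.3 CPM (log2 -0.11, SE 0.12, adjusted p = 0.538). Cox7a2l, the supercomplex protein, measured 105, 109.8 and 106.2 CPM against 93.6, 109 and 109 CPM (log2 -0.04, SE 0.11, adjusted p = 0.804).

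The muscle form Cox7a1 was low and scattered, at 0.556, 2.08 and 1.13 CPM in the controls and 2.35, 1.44 and 1.33 CPM in the knockouts (log2 0.46, SE 0.48, adjusted p = 0.519). Cox4i2, the form of lung, had 7, 4 and 7 counts in the controls and 4, 0 and 0 in the knockouts and was not tested. Cox6a2, the muscle form, had 5, 2 and 6 counts against 3, 3 and 1, and Cox8b had 1 count in 1 knockout. Cox7b2 and Cox8c had 0 counts in all 6 livers, which allows up to 0.125 to 0.163 CPM per liver. Of 11 striated muscle markers 4 (Myh1, Myh4, Pvalb and Myh6) were at 0 in every liver, 1 was tested and did not pass, and their summed level was 1.45 to 1.74 CPM in the controls and 0.767 to 1.59 CPM in the knockouts. The other nuclear encoded members of complex IV (Cox5a, Cox5b, Cox6c, Cox7b and Cox7c) had log2 fold changes from 0.01 (Cox7c) to 0.30 (Cox6c), and none passed.

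**Figure D4:**
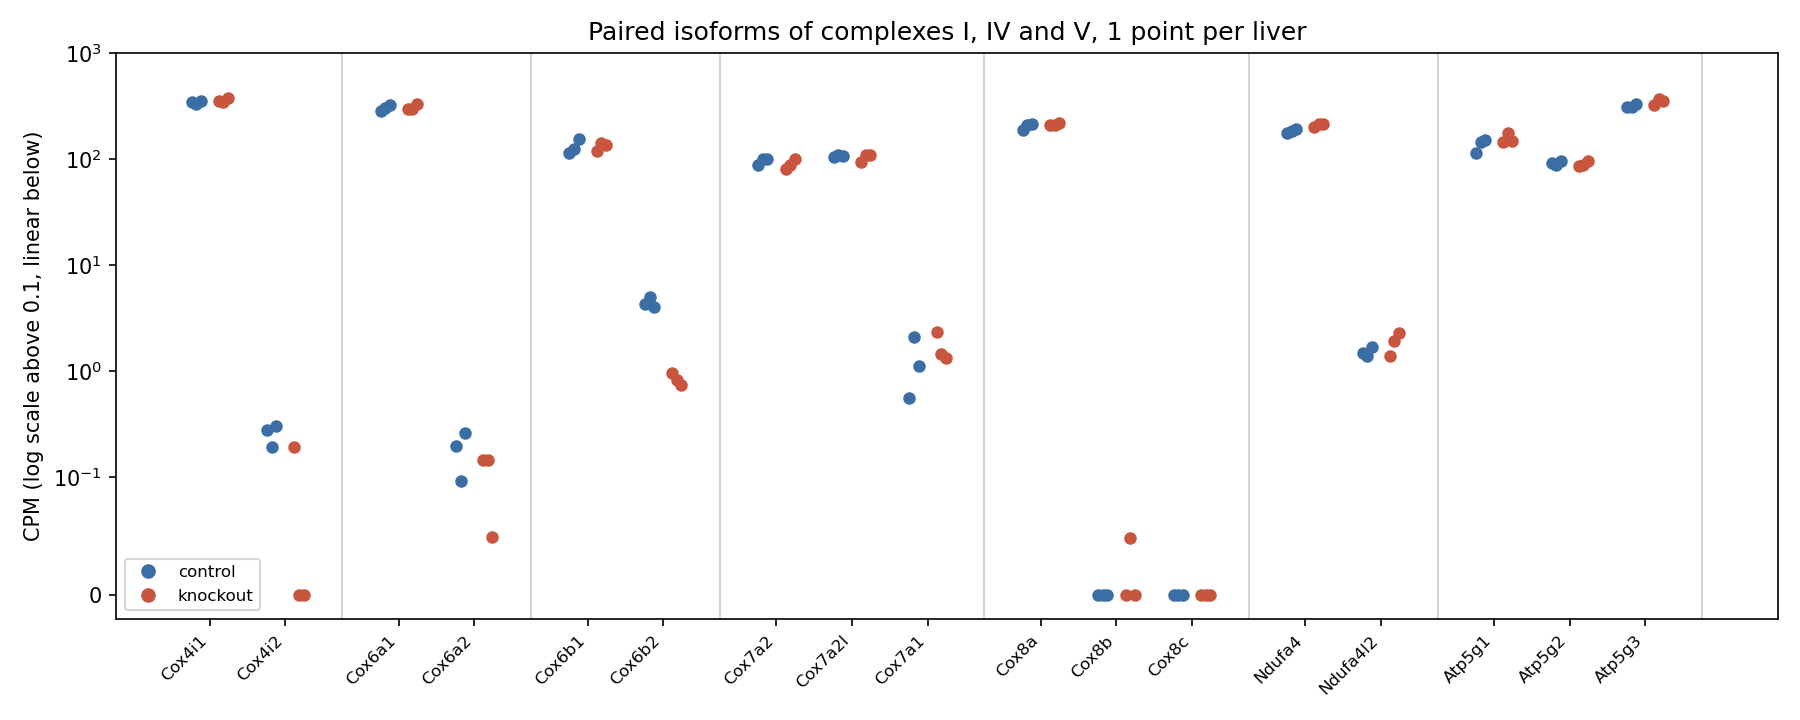
Level in CPM (log scale, linear below 0.1) of the subunits that exist as isoforms, with 1 point per liver for the 3 controls and the 3 knockouts. Cox6b2 is the isoform whose groups are far apart (4.04 to 5.03 against 0.739 to 0.959 CPM), while its common form Cox6b1 lies between 113 and 154 CPM in both groups.

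Complex V, ATP synthase, had 20 members, 19 of them tested, of which 2 rose (10.5%, against 11.9% of all tested genes) and 0 fell, with a median log2 fold change of 0.24. Atp5c1, the gamma subunit that forms the central rotor stalk, measured 167, 176 and 186 CPM in control livers and 213, 233 and 229 CPM in knockout livers. It rose by 0.35 (SE 0.11, adjusted p = 0.0448). Atp5h, subunit d of the peripheral stalk, measured 107, 109.7 and 112 CPM against 133, 138 and 140.0 CPM and rose by 0.32 (SE 0.10, adjusted p = 0.0444); 19.9% of its 50-base sequences occur in other genes. Neither gene's groups overlapped, and neither passed when any 1 liver was left out (adjusted p = 0.0647 to 0.108 for Atp5c1 and 0.0777 to 0.106 for Atp5h).

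The catalytic head did not pass: Atp5a1 (alpha) had a log2 fold change of 0.33 (SE 0.12, adjusted p = 0.0865) and Atp5b (beta), where the catalytic sites lie, one of 0.15 (SE 0.13, adjusted p = 0.409). The 3 genes Atp5g1, Atp5g2 and Atp5g3 encode the same mature c subunit of the rotor ring behind different import sequences. Atp5g1 measured 114, 145 and 150.2 CPM in control livers and 145, 178 and 147 CPM in knockout livers (log2 0.20, SE 0.15, adjusted p = 0.357). Atp5g2 measured 91.4, 87.2 and 96.1 CPM against 86.8, 87.0 and 96.7 CPM (log2 -0.02, SE 0.11, adjusted p = 0.901). Atp5g3 measured 312, 309 and 333 CPM against 323, 365 and 351 CPM (log2 0.12, SE 0.11, adjusted p = 0.466). The groups overlapped in all 3. Per kb of merged exon, Atp5g3 made up 63.4% to 64.8% of the level of the 3 genes in the controls and 64.5% to 65.5% in the knockouts. These shares depend on the annotated lengths, 4912, 1675 and 2181 bases for Atp5g1, Atp5g2 and Atp5g3. They are also uncertain because 36.7% of the 50-base sequences of Atp5g2 and 11.1% of those of Atp5g1 occur in other genes.

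mt-Atp6, the channel subunit through which protons pass, measured 81.0, 61.8 and 83.0 CPM in control livers and 85.7, 111 and 84.0 CPM in knockout livers (log2 0.31, SE 0.16, adjusted p = 0.190). mt-Atp8, read from an overlapping frame of the same messenger, measured 1.15, 0.822 and 1.00 CPM against 1.34, 1.25 and 1.18 CPM from 17 to 29 counts (log2 0.34, SE 0.29, adjusted p = 0.432). In both the knockouts lay just above the controls. The lowest value of the complex was that of Atp5mpl, a small membrane subunit, at 67.2, 79.3 and 79.1 CPM against 65.8, 72.2 and 77.8 CPM (log2 -0.06, SE 0.12, adjusted p = 0.732). The other members of the complex, stalk, head and membrane subunits and factor B, had log2 fold changes from 0.06 (Atp5o) to 0.34 (Atp5j, adjusted p = 0.0522), and none passed. Atp5o has 2 gene identifiers, of which ENSMUSG00000116933 had 0 counts in every liver and the other a log2 fold change of 0.06. Atpif1, the inhibitor that stops ATP synthase from running backwards and no subunit itself, measured 14.1, 16.9 and 16.7 CPM against 10.0, 12.8 and 13.4 CPM. Its knockouts lay below its controls (log2 -0.40, SE 0.15, adjusted p = 0.0929), and it passed as lower under library totals (log2 -0.65, adjusted p = 0.0152).

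Genes that build or serve the complexes were taken from lists chosen beside the subunits. Over all tested genes 11.9% rose and 13.1% fell, or 6.13% and 25.1% under library totals, and the counts of each list stand beside these shares. Of 47 tested assembly factors 13 rose (27.7%) and 1 fell (2 and 2 under library totals). Without any 1 liver 9 to 11 rose, and 0 fell in those fits other than the one without knockout 3, where 1 did. Surf1, which inserts heme into complex IV, had a log2 fold change of 0.56 (SE 0.11, adjusted p = 0.008), and the complex IV factor Coa4 one of 0.85 (SE 0.17, adjusted p = 0.00943). Ndufaf1 and Ndufaf3, both needed to assemble complex I, rose by 0.59 (SE 0.12, adjusted p = 0.00979) and 0.70 (SE 0.14, adjusted p = 0.00996).

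Of 30 genes that maintain mitochondrial DNA and RNA 5 rose (16.7%) and 0 fell (0 and 1 under library totals). The count that rose was 2 without control 2, control 3, knockout 1, knockout 2 or knockout 3, and 1 fell without knockout 3. Tfam, which packages mitochondrial DNA and starts its transcription, rose by 0.50 (SE 0.11, adjusted p = 0.0132), and Fastkd1, a mitochondrial RNA-binding protein, by 0.63 (SE 0.13, adjusted p = 0.0108). Lrpprc, which stabilises mitochondrial messengers, rose by 0.41 (adjusted p = 0.0291) and Grsf1, a protein of mitochondrial RNA granules, by 0.34 (adjusted p = 0.0333). Neither of the latter passed when any 1 liver was left out (adjusted p = 0.0513 to 0.0744 for Lrpprc and 0.0587 to 0.0944 for Grsf1).

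Of 14 tested transcriptional regulators of respiration genes 5 rose (35.7%) and 0 fell (3 and 1 under library totals). The count that rose was 3 without control 2, knockout 1 or knockout 2. Esrrg, an estrogen-related nuclear receptor, measured 0.794, 0.967 and 1.48 CPM in control livers and 6.14, 15.1 and 11.4 CPM in knockout livers. It was low in every control, and rose by 3.33 on the log2 scale (SE 0.39, adjusted p = 0.00117). Ppara, the receptor that governs fatty acid oxidation, rose by 0.93 (SE 0.18, adjusted p = 0.00861), and Sirt3, a mitochondrial deacetylase, by 0.81 (SE 0.13, adjusted p = 0.00384). Gabpa, the ETS subunit of GABP, rose by 0.56 (SE 0.15, adjusted p = 0.0246), though not without control 2, control 3, knockout 1 or knockout 2 (adjusted p = 0.0588 to 0.0759); its exons overlap the member Atp5j on the other strand.

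Of 24 electron carriers and other quinone-linked enzymes 5 rose (20.8%) and 1 fell (3 and 2 under library totals). The count that rose was 3 without control 3 or knockout 1. The coenzyme Q proteins went in opposite directions: Coq8a rose by 0.98 (SE 0.16, adjusted p = 0.00382) and Coq10a by 0.89 (SE 0.13, adjusted p = 0.00318), while Coq8b measured 57.4, 50.8 and 49.4 CPM in control livers and 20.1, 15.4 and 22.0 CPM in knockout livers and fell by 1.45 (SE 0.15, adjusted p = 0.000806). Prodh, which passes electrons from proline to ubiquinone, rose by 1.88 (SE 0.32, adjusted p = 0.0049).

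Among 8 tested carriers of the inner membrane 2 rose and 2 fell (25% each; 1 and 2 under library totals). The count that rose was 1 without control 2. Slc25a4, the ADP/ATP carrier of heart and muscle, measured 18.4, 21.4 and 23.4 CPM against 6.28, 7.70 and 6.60 CPM and fell by 1.62 (SE 0.15, adjusted p = 0.000565). Ucp2, an uncoupling protein family member, fell by 0.67 (SE 0.13, adjusted p = 0.00761). The dicarboxylate carrier Slc25a10 rose by 0.70 (SE 0.11, adjusted p = 0.00386), and the aspartate/glutamate carrier Slc25a13 by 0.64 (SE 0.15, adjusted p = 0.0152), the latter not without control 2 (adjusted p = 0.0584).

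Of 17 citric acid cycle enzymes 8 rose (47.1%) and 1 fell (0 and 1 under library totals), with a median log2 fold change of 0.40. The count that rose was 0 without control 3 or knockout 1, 2 without control 2, 4 without control 1 or knockout 2 and 5 without knockout 3. Mdh2, mitochondrial malate dehydrogenase, fell by 0.54 (SE 0.11, adjusted p = 0.0101), though not without knockout 1 (adjusted p = 0.0556). Suclg2, of succinyl-CoA synthetase, rose by 0.55 (adjusted p = 0.017), though not without control 2, control 3 or knockout 1 (adjusted p = 0.0512 to 0.0648). Pdhb, of pyruvate dehydrogenase, rose by 0.98 (adjusted p = 0.0183), though not without control 1, control 3 or knockout 1 (adjusted p = 0.0529 to 0.0643). Idh3b, of isocitrate dehydrogenase, rose by 0.41 (adjusted p = 0.0252), though not without control 2, control 3, knockout 1 or knockout 2 (adjusted p = 0.0521 to 0.0864).

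Of 18 genes of mitochondrial fission, fusion and cristae 2 rose (11.1%) and 0 fell (1 and 0 under library totals): the fusion proteins Mfn2 of the outer membrane, by 0.82 (SE 0.11, adjusted p = 0.00185), and Opa1 of the inner membrane, by 0.57 (SE 0.10, adjusted p = 0.00554). Of 17 genes of mitophagy and quality control 1 rose and 1 fell (5.88% each; 0 and 3 under library totals). The matrix protease Lonp1 fell by 0.98 (SE 0.13, adjusted p = 0.00174). The superoxide dismutase Sod2 rose by 0.46 (SE 0.10, adjusted p = 0.0153), though not without control 2 or knockout 1 (adjusted p = 0.0566 and 0.0516). The list of supercomplex and hypoxia-linked factors held 9 genes, 3 of them members, and the member Cox4i2 was not tested. Of the 8 tested, 0 passed with edgeR, limma-voom or DESeq2, and 0 reached an unadjusted p under 0.05. Higd2a and Higd1a both had a log2 fold change of 0.27 (adjusted p = 0.200 and 0.207).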

How the data were processed

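The authors deposited whole-number read counts per Ensembl gene, 1 column per mouse liver, without normalization. Poly-A RNA was primed with random hexamers per the labels' protocols. Per the submitters' processing notes, which give no role or order, the build was GRCm38.p6 and the tools were featureCounts 1.5.0-p3, StringTie 1.3.3b and HISAT2 2.0.5. The strand setting and the handling of reads that map to several places are not given in the sources used here.

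Of 54532 gene rows 54495 matched GENCODE M21. After filterByExpr (by group) and TMM scaling, edgeR 4.0.16 in R 4.3.3 fitted the 6 livers with no covariate, and its quasi-likelihood test gave p-values for 14758 genes. Benjamini-Hochberg adjustment ran over all of them, and the threshold was an adjusted p of 0.05. An SE is the size of the log2 fold change divided by the square root of F. CPM values are counts relative to the TMM-scaled library size. Per-kb values divide by the length of the merged exons. Livers are separate mice per the labels; each pair of the same group differed beyond counting error (chi-square per degree of freedom from 24.5 to 74.4). Depth was 18428224 to 24042917 counts, and a limit of 3 counts covers counting error only.

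The members and lists were chosen with earlier results of these data known. Named were all mitochondrially encoded members, nuclear members that passed (up to 6 per complex), the highest and lowest of each complex, the isoform families, the inhibitor Atpif1, and from each list of related mitochondrial genes up to 4 that passed by smallest p, or 2 where none passed. Further genes are named to complete a count or a range, chosen after their values were seen. Of 269 list genes 4 were matched by a synonym.

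The alternatives comprised DESeq2 1.42.0, limma-voom (limma 3.58.1), relative log expression (RLE) size factors, library totals, other filters and thresholds, leaving out mitochondrial genes or the 20 most abundant other genes, the mouse number as a block, offsets for length and GC content, and each liver left out. Summing genes with their chromosome 1 copies, mt-Co1 excepted, was added after seeing the data. Steps were tested on simulated data. Figures used matplotlib 3.10.9 in Python 3.11.15. In the text and the plot of fold changes, 1 member is not reported by name here.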

Additional observations from a re-analysis of the deposited data

How the results depend on the processing

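The lower call of Cox6b2 held in every alternative run. Against 11 members higher and 1 lower with edgeR and TMM, DESeq2 called 19 members higher and 1 lower, limma-voom 15 and 1, RLE size factors 12 and 1 (12.1% of all genes higher), the filter of at least 50 counts in 3 libraries 10 and 1 (13.2%), no filter 6 and 1, and length and GC offsets 13 and 2. A threshold of 0.1 gave 24 and 1 (16.1% of all genes higher), and one of 0.01 gave 0 and 1 (4.91%). Library totals gave 0 and 3, and among all genes 19.6% of the calls were higher, against 47.5% with TMM. The cause was not tested in any of these.

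By group, DESeq2 called 4 mitochondrially encoded members higher and 1, 3 and 4 members of complexes III, IV and V. Over all genes it called 13.4% higher and 27.7% in either direction. limma-voom called 3 mitochondrially encoded members higher. With library totals 0 nuclear and 0 mitochondrially encoded members were higher, 2 nuclear and 1 mitochondrially encoded were lower, complexes I, II and V had 2, 0 and 0 called, and the summed log2 ratio was -0.054 for nuclear and 0.089 for mitochondrially encoded members. Turned signs are listed only for members named by rule, not for all members, and the median over all nuclear encoded members was -0.03 there. Among the members named by rule, signs turned for Atp5g1 (-0.062), Atp5g3 (-0.13), Cox4i1 (-0.18), Cox6a1 (-0.23), Cox6b1 (-0.24), Cox8a (-0.19), Ndufa4 (-0.059), mt-Cytb (-0.0067), mt-Nd3 (-0.055) and mt-Nd5 (-0.18), none of which passed. Without a filter 4 nuclear and 2 mitochondrially encoded members were higher, with 1 and 0 called in complexes II and V; the stricter filter left 1 in complex II. At 0.01, 1515 genes were called, with 0 nuclear and 0 mitochondrially encoded members higher and 0 called in complexes I, II and V. At 0.1, 20 nuclear and 4 mitochondrially encoded members were higher, with 11, 3, 3 and 5 called in complexes I, III, IV and V. With length and GC offsets 0 mitochondrially encoded members were higher and 1 was lower, their median was 0.10, and complexes III and IV had 1 and 2 called. Among the members named by rule, signs then turned for Atp5g2 (0.095), Cox6b1 (-0.066), Ndufa4 (-0.034), mt-Cytb (-0.011), mt-Nd3 (-0.096) and mt-Nd5 (-0.17). mt-Nd4l turned to 0.020 with limma-voom and to 0.058 when summed with its copy.

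Deviations of same-numbered livers correlated at -0.027, 0.044 and -0.018, and those of the other pairs at -0.093 to 0.094. With 3 livers per group these values cannot show whether livers were paired. The mouse numbers follow the sample titles and differ from the numbers in the count column names. With the number as a replicate block 9.74% of all genes, 3 nuclear and 0 mitochondrially encoded members were higher. Complexes I, II and V had 2, 1 and 0 called, where 20.9% of all genes were called in either direction. With block and offsets together 11.6% of all genes were higher (21.8% called in either direction). Then 4 nuclear and 0 mitochondrially encoded members were higher, and complexes I, II and V had 3, 1 and 0 called. Among the members named by rule, signs turned for Atp5g2 (0.095), Cox6b1 (-0.059), Ndufa4 (-0.034), mt-Cytb (-0.010), mt-Nd3 (-0.093) and mt-Nd5 (-0.19).

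With each liver left out in turn, 2275 to 3413 genes were called (15.1% to 22.5% of those tested). In these fits 1 to 4 nuclear and 0 to 2 mitochondrially encoded members were higher. Complexes I, II, IV and V had 1 to 3, 0 to 1, 1 to 2, and 0 called. The summed log2 ratio was 0.19 to 0.26 (nuclear) and 0.33 to 0.38 (mitochondrially encoded). Among the members named by rule, signs turned within -0.031 to 0.086 for Cox6a1, -0.063 to 0.18 for Cox6b1, -0.23 to 0.45 for mt-Nd4l, -0.24 to 0.0039 for Uqcr10, -0.071 to 0.036 for Atp5g2, -0.12 to 7.4e-06 for Atp5mpl, -0.077 to 0.030 for Cox7a2l and -0.068 to 0.21 for mt-Nd5. Depth limits the isoforms under 50 counts per liver.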

Other observations

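The ribosomal RNAs of mitochondria, which the member rule leaves out, were counted as well. mt-Rnr1, the small-subunit RNA, measured 573, 447 and 466 CPM in control livers and 754, 568 and 489 CPM in knockout livers, and knockouts 2 and 3 lay under control 1. mt-Rnr2, the large-subunit RNA, measured 617, 473 and 471 CPM against 574, 420.1 and 443 CPM, with overlapping groups. The libraries were selected for poly-A RNA, so these levels do not measure ribosome number. The ratio of summed mitochondrially to nuclear encoded subunit counts, which no scaling between libraries can move, was 3.69, 3.72 and 3.32 in the controls and 4.17, 3.99 and 3.68 in the knockouts. Knockout 3 lay under controls 1 and 2.

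Across the 79 tested nuclear encoded subunits, Spearman's rho of the log2 fold change was 0.19 with exonic length, -0.118 with GC content and 0.0608 with mean CPM. These are descriptions across genes of the same 6 libraries.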
